A study of Arabidopsis thaliana with 4 samples.

Results

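The comparison set 1 array of sfr6 seedlings kept in the light against 1 array of wild-type seedlings kept in the light, 2 of the 4 arrays in the series. The sfr6 line is an EMS mutant (EMS is a chemical mutagen) of Col-0, and Col-0 itself is the wild type. After 7 days of growth, agar plates of both genotypes went to a cabinet at 240 microEinsteins with 16 h of light and 8 h of dark, stayed there for 24 h, and then remained uncovered for another 3 h before harvest. The other 2 arrays, used here only to see whether a light difference recurred, came from sfr6 and wild type wrapped in foil for the same 3 h. Each group has 1 array, so no difference has a replicate and none was tested. A mutagenised line can also carry other mutations, and the number of plants behind each array is not given in the sources used here.

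SFR6 (sensitive to freezing) encodes MED16, a tail subunit of Mediator, the complex that passes signals from DNA-bound transcription factors to RNA polymerase II. In Arabidopsis the subunit is known for its part in expressing cold-regulated genes that carry the CBF-bound promoter element, and also for roles in defence, iron-deficiency and flowering-time gene expression. Its own transcript is not analysed here, so the mutant label has no check from the targeted gene. Of 5 other Mediator subunit genes measured, none was 2-fold different, with log2 differences from -0.21 for AT5G20170 (MED17) to 0.16 for AT5G02850 (MED4).

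The signals are MAS5 intensities on arrays scaled to a common level. Those under 22.1 were set to 22.1 (the floor), and the difference is the log2 signal of sfr6 minus that of wild type, so a positive value means higher in sfr6. Where the dimmer array lay under the floor, the fold is a lower bound and is given as "at least". The labels call the tissue a cell culture, but leaf genes and a root gene were far over the floor. RCA, the Rubisco activase, read 3384 in sfr6 and 3522 in wild type, and the antenna gene LHCB4.1 read 3177 and 3695. PYK10, a root beta-glucosidase, read 2562 in sfr6 and 3004 in wild type. The 4 green-tissue genes measured all lay below 0 (median log2 difference -0.29, and -0.11 with the spike-in centring described below). Of the 3 root genes, EXPA7 (54.6 in sfr6, 28.1 in wild type) and EXPA18 (42.2 and 36.2) were higher and PYK10 lower. How far the make-up of the seedlings moved with the differences below was not tested, and in whole seedlings fewer cells of a type and less RNA per cell cannot be told apart.

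Of 14658 probe sets over the floor on at least 1 light array, 148 (1.01%) were higher in sfr6 by 2-fold or more and 252 (1.72%) were lower by as much. The log2 difference had a median of 0.02 and an SD of 0.42 over these probe sets. With signals floored, the SD was between 0.38 and 0.45 in 5 bins of signal. The floor cuts off differences of dim probe sets, so these SDs do not compare the reliability of dim and bright signals. For 82 genes measured by 2 probe sets over the floor, the differences from the 2 probe sets were a median of 0.19 apart, and 90% of these gaps were at most 0.60. The 17 spike-in controls over the floor had a median difference of -0.18 (SD 0.22). Centring on them raised the median of all probe sets to 0.20 and turned the counts to 328 higher and 162 lower, so which direction held more probe sets depended on the scale. In the light, the GAPDH control read 1552 at its 3' end and 1426 at its 5' end in sfr6, against 1164 and 1026 in wild type, while 25S ribosomal RNA read 119.8 and 122. In the dark 25S read 1321 in sfr6 and 364 in wild type, and its part in the dark differences was not tested.

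**Figure D1:**
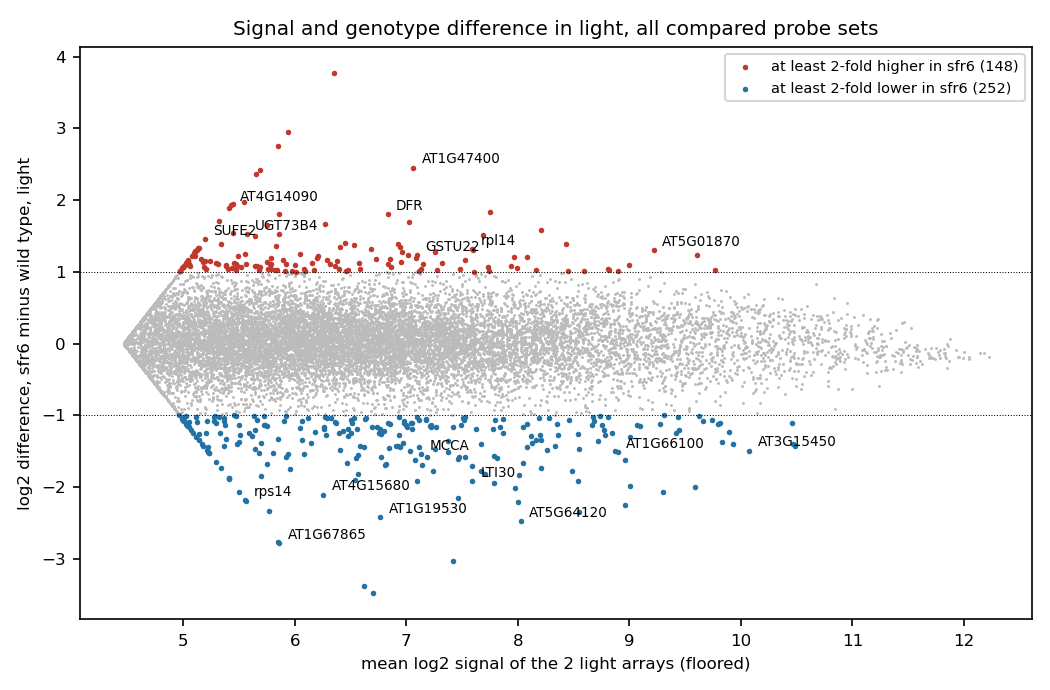
Each point is a probe set, with the mean log2 signal of the 2 light arrays on the horizontal axis and the log2 difference (sfr6 minus wild type) on the vertical axis; dotted lines mark 2-fold. Red points (148) are at least 2-fold higher in sfr6 and blue points (252) at least 2-fold lower, and the blue points extend to brighter signals than the red ones. The points furthest from 0 in both directions are probe sets with no single gene name.

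The annotation gave 7847 measured genes a name, each represented by its brightest probe set. Of these, 64 (0.816%) were higher in sfr6 by 2-fold or more and 117 (1.49%) lower by as much. In the dark pair, the shares among 7418 named genes were 0.741% higher and 1.5% lower. Another 83 higher and 134 lower probe sets carried no single gene name. The counts by pathway below are set beside the 2 light shares and the 4120 of 7847 named genes that lay above 0. All lists and families were chosen with earlier results of these data known or after the values were seen. The counts are thus descriptions and not independent support. Of the 7847 genes, 7053 were over the floor on both light arrays. Each of the others could lie only on the side of the array over the floor. A listed gene was not measured when it had no named probe set or lay under the floor on both light arrays. With spike-in centring the counts over all named genes were 146 higher and 74 lower. The 2 light shares thus hold for the deposited scale alone. With the same centring, the iron-deficiency, SWEET, expansin, tubulin, methionine sulphoxide reductase and serine carboxypeptidase groups each had 1 more gene at 2-fold higher. Losses are given with their groups.

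With signals floored at 22.1, the largest upward difference of a named gene was in an iron-deficiency signal. AT1G47400, which encodes the IRONMAN peptide IMA1 that promotes iron uptake, read 313 in sfr6 and 57.1 in wild type, a 5.48-fold difference. In the dark both arrays were low, at 29.5 in sfr6 and 10.2 in wild type. Of 28 genes on the iron-deficiency list, 8 had a named probe set and 6 were measured; 1 was at least 2-fold higher, 0 lower, and all 6 lay above 0, with a median of 0.69 against 0.02 for all named genes. AT1G74770 and AT1G18910, which encode the BTSL ubiquitin ligases that restrain the iron response, read 46.6 and 54.5 in sfr6 against 24.0 and 33.6 in wild type. PYE, a bHLH regulator of iron-deficiency genes, read 76.2 in sfr6 and 47.6 in wild type. AT3G07720, a kelch-repeat gene induced by iron deficiency, was 1.45-fold higher, and AT3G13610, which encodes the enzyme F6'H1 of coumarin synthesis, 1.09-fold higher.

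The bHLH factors that act upstream of these genes had no common direction. The 5 IVc bHLH genes and partners, all measured, had 0 members at 2-fold and a median of -0.04. With spike-in centring it turned to 0.14, where that of all named genes was 0.19. The 5 genes had log2 differences from -0.77 for bHLH121 to 0.07 for bHLH34. bHLH121 read 44.8 in sfr6 and 76.6 in wild type, bHLH104 158 and 230.2, and ILR3 321 and 329. Of 3 measured genes of plastid iron-sulphur cluster assembly, SUFE2, an activator of the cysteine desulphurase, read 60.6 in sfr6 and lay under the floor in wild type, at least 2.74-fold higher. CPNIFS, the plastid desulphurase itself, was 1.65-fold lower, at 123 in sfr6 and 203 in wild type, and HCF101, a scaffold protein, was close to equal at 351 and 372.

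Genes of anthocyanin synthesis were on the same side. Of 17 listed genes of flavonoid and anthocyanin synthesis 7 were measured. At least 2-fold higher were 2, with 0 lower, and 6 of 7 lay above 0 (median 0.74). Over the floor on both light arrays were 5, with a median of 0.70. AT4G14090 and AT5MAT entered through sfr6 alone and could only lie above 0. DFR, the reductase at the entry to the anthocyanin branch, read 214 in sfr6 and 60.9 in wild type, 3.51-fold higher. AT4G14090, which encodes the anthocyanin 5-O-glucosyltransferase UGT75C1, read 84.0 in sfr6 and 4.57 in wild type, at least 3.80-fold higher. With the floor at the 20th percentile its log2 difference was 3.52, above the 2.45 of AT1G47400. Both arrays of AT4G14090 were under the floor in the dark.

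The late anthocyanin-modifying genes lay on the same side. UF3GT, a xylosyltransferase that acts on anthocyanins, read 166 in sfr6 and 105 in wild type. AT5MAT, a malonyltransferase acting on the same pigments, read 36.9 and 12.7. Its wild-type signal was under the floor, and with signals floored the difference was under 2-fold, a lower bound. The flavonol glycosyltransferase UGT78D1 was 1.74-fold higher, at 189.8 in sfr6 and 109 in wild type. UGT78D2, which glycosylates flavonols and anthocyanidins at the 3 position, was the exception, at 208 in sfr6 and 215 in wild type.

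Most measured detoxification genes were also higher in sfr6. Of 26 listed genes of the xenobiotic and oxidative stress response 6 were measured, and 4 were at least 2-fold higher with 0 lower (median 1.12). GSTU22 and GSTU25, tau-class glutathione transferases, which conjugate glutathione to reactive compounds, read 209.8 and 167 in sfr6 against 89.1 and 78.0 in wild type. UGT73B4 and UGT73B5, glycosyltransferases induced by stress, read 80.6 and 80.0 in sfr6 against 28.0 and 36.4 in wild type. Both UGT genes lie next to each other in the locus order and are close relatives, so their probe sets may share signal. The other 2 measured genes were level: AER, an alkenal reductase, read 626 in sfr6 and 597 in wild type, and AT2G21640 read 27.1 and 30.4.

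The families to which these genes belong had medians nearer to 0. Of 9 measured tau glutathione transferases, 2 were at least 2-fold higher and 0 lower, with a family median of 0.12. GSTU20 was 1.63-fold higher, at 663 in sfr6 and 406 in wild type, whereas GSTU16 (260.3 and 334) and GSTU18 (170.0 and 217) were 1.28-fold lower. Of 33 measured UDP-glycosyltransferases, 2 were higher and 1 lower at 2-fold, with a median of 0.14. The lower one was UGT72B3, at 31.4 in sfr6 and 63.1 in wild type, and with spike-in centring 0 were lower. The 12 measured cytochromes P450, nearly all of the CYP71B subfamily, had 0 members at 2-fold and 10 below 0. Their median was -0.22 on the deposited scale and -0.08 with spike-in centring, against 0.02 and 0.19 for all named genes. CYP71B37, CYP71B24, CYP71B36 and CYP78A9 were under the floor in sfr6, entered through wild type alone and could only lie below 0. The 8 over the floor on both light arrays also had a median of -0.22.

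**Figure D2:**
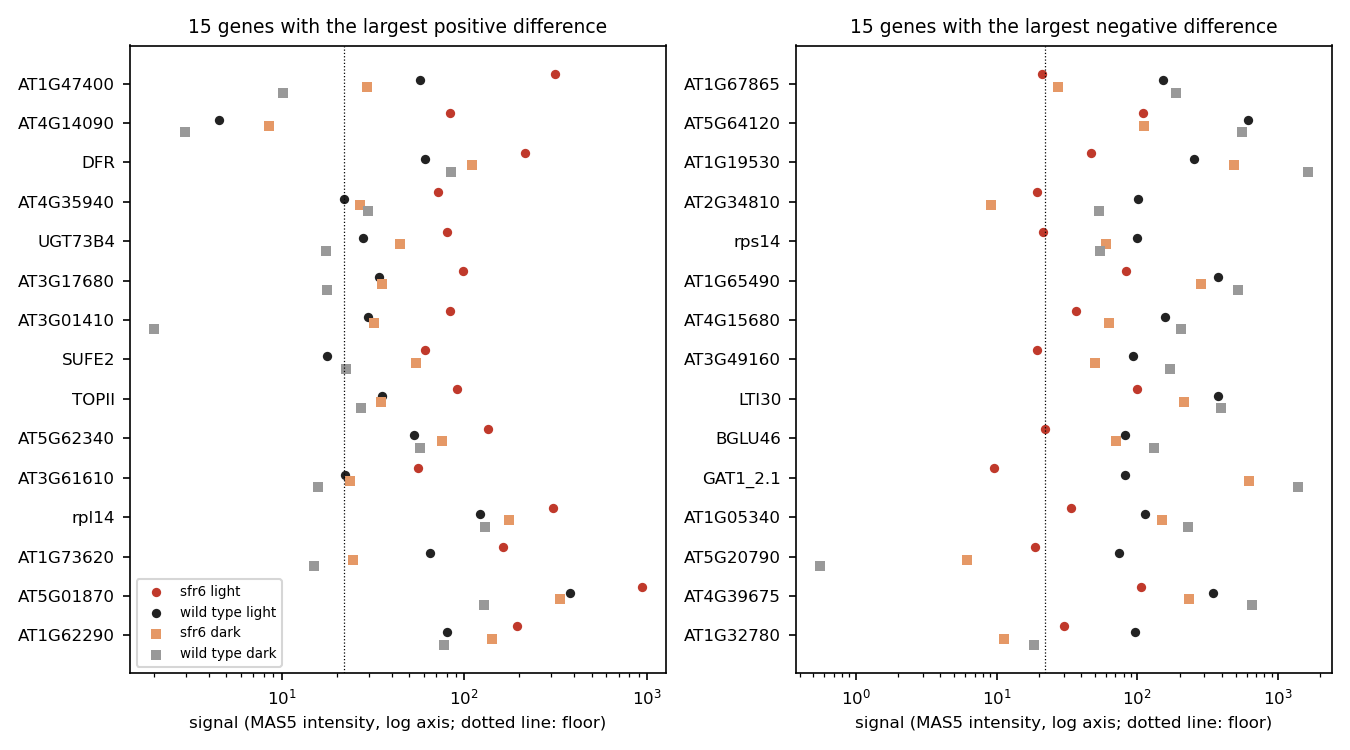
Signals on all 4 arrays (horizontal log axis, MAS5 intensity) of the 15 named genes with the largest positive and the 15 with the largest negative difference in light; circles are light arrays, squares dark arrays, and the dotted line is the floor. AT1G47400 and AT4G14090 are high on the sfr6 light array alone, while AT1G67865 and AT5G64120 are low in sfr6 on the light and the dark array.

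Among the genes lower in sfr6, were most measured members of the dark and sugar-starvation list. These genes are known to be repressed by sugar and light and induced when carbon runs short. Of 16 listed genes 5 had a named probe set, and all 5 were measured. In the light 4 were at least 2-fold lower in sfr6 with 0 higher (median -1.38). With spike-in centring 3 were lower, without AKINBETA1. GAT1_2.1, a glutamine amidotransferase-like gene, read 9.56 in sfr6 and 81.3 in wild type, at least 3.68-fold lower. AT3G15450 (SEN5) read 642 in sfr6 and 1809 in wild type, 2.82-fold lower. ATL8, a RING-type ubiquitin ligase gene, read 28.1 and 73.0, and AKINBETA1, a beta subunit of the SnRK1 energy-sensing kinase, 103 and 230.1.

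The fifth gene of that list, the expansin-like EXLA1, read 38.8 in sfr6 and 28.4 in wild type. On the dark arrays the sfr6 signals of these genes were much brighter, at 617 for GAT1_2.1, 2911 for AT3G15450, 171 for ATL8 and 921 for AKINBETA1. The wild-type dark signals were 1395, 3465, 526 and 1324 in the same order. The sfr6 signal was thus the lower of the pair for all 4 genes in dark as in light, but the dark fold was smaller for all except ATL8, at 3.08-fold in dark and 2.60-fold in light. The difference between the folds was not tested.

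Enzymes that break down branched-chain amino acids and lysine, which feed respiration when sugar is short, were lower too. Of 13 listed genes 7 were measured; 2 were at least 2-fold lower, 0 higher, and 6 of 7 lay below 0 (median -0.58). MCCA, a subunit of methylcrotonyl-CoA carboxylase in leucine breakdown, read 82.3 in sfr6 and 239.9 in wild type, and IVD, the dehydrogenase of an earlier step of that route, 179.5 and 456. The partner subunit MCCB was 1.49-fold lower, at 177 in sfr6 and 264 in wild type. AT4G33150, which encodes the bifunctional lysine-degrading enzyme, read 55.3 and 102, and ALDH6B2, a methylmalonate-semialdehyde dehydrogenase of valine breakdown, 388 and 548. AT4G20930, a hydroxyisobutyrate dehydrogenase gene, was on the other side at 44.3 in sfr6 and 33.7 in wild type.

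Sugar transporters of the SWEET family, which let sugars cross membranes down their gradient, were mostly below 0. Of 8 measured members, 1 was at least 2-fold lower and 7 lay below 0 (median -0.57). SWEET16, a vacuolar member, read 50.8 in sfr6 and 142 in wild type, 2.79-fold lower. SWEET1 read 69.3 and 134, SWEET2 289 and 538, and SAG29 (SWEET15) 70.8 and 119. SWEET17, another vacuolar fructose carrier, was 1.31-fold lower at 351 and 461. SWEET4 alone was higher, at 58.3 in sfr6 and 31.6 in wild type.

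A set of genes induced by low oxygen was examined after their values had been seen. Of 48 listed genes 18 were measured; 6 were at least 2-fold lower in sfr6 and 0 higher. The list's median, -0.11, was close to that of all genes, since 8 of its members lay above 0. AT1G19530, of unassigned function, read 47.1 in sfr6 and 252 in wild type. AT4G39675 read 107 and 348, and AT3G10020 84.0 and 252. PDC2, a pyruvate decarboxylase of ethanol fermentation, read 92.0 in sfr6 and 255 in wild type. AT1G33055 and AT4G27450 were 2.37-fold and 2.28-fold lower. AT5G47060 was the highest of the list, at 163 in sfr6 and 97.7 in wild type. Several of the lower genes were far brighter in the dark, such as AT3G10020 at 791 in sfr6 and 909 in wild type.

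Cold-regulated genes of the CBF regulon, whose products protect membranes and proteins during freezing, lay below 0. Of 16 listed genes 4 had a named probe set, all 4 were measured, and 1 was at least 2-fold lower (median -0.70). LTI30, a dehydrin, read 99.0 in sfr6 and 374 in wild type, 3.78-fold lower. COR15B, a chloroplast protein that protects membranes, read 55.5 and 93.0, and the dehydrin COR47 read 509 and 805. COR15A, the close relative of COR15B, was level in light at 184 in sfr6 and 190.3 in wild type, but read 24.9 in sfr6 and 57.9 in wild type in the dark. The plants had not been cold-treated according to the labels.

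Class III peroxidases, secreted enzymes that use hydrogen peroxide to cross-link or loosen cell walls, went both ways. Of 73 family members, a list assembled after seeing the values, 55 had a named probe set and 36 were measured. In sfr6 4 were at least 2-fold lower and 2 at least 2-fold higher, but with spike-in centring 3 were lower and 4 higher. AT5G64120 (PRX71) read 110.5 in sfr6 and 615 in wild type, 5.56-fold lower. AT5G64100 (PRX69) read 263 and 677, AT2G37130 (PRX21) 58.3 and 158. AT5G39580 (PRX62) was 2.01-fold lower, with 70.4 in wild type, and was under 2-fold with spike-in centring. Those 4 were also lower in the dark, between 1.93-fold and 4.97-fold.

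The neighbouring locus between the first 2 of these, AT5G64110 (PRX70), was level in light at 38.2 in sfr6 and 40.6 in wild type. The 2 higher members were AT5G51890 (PRX66), at 357 in sfr6 and 169 in wild type, and AT3G01190 (PRX27), at 257 and 124. AT1G68850 (PRX11) and AT4G30170 (PRX45) came close to 2-fold, at 1.96-fold and 1.92-fold higher. Of the 36 measured members 25 lay above 0, with a median of 0.27.

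**Figure D3:**
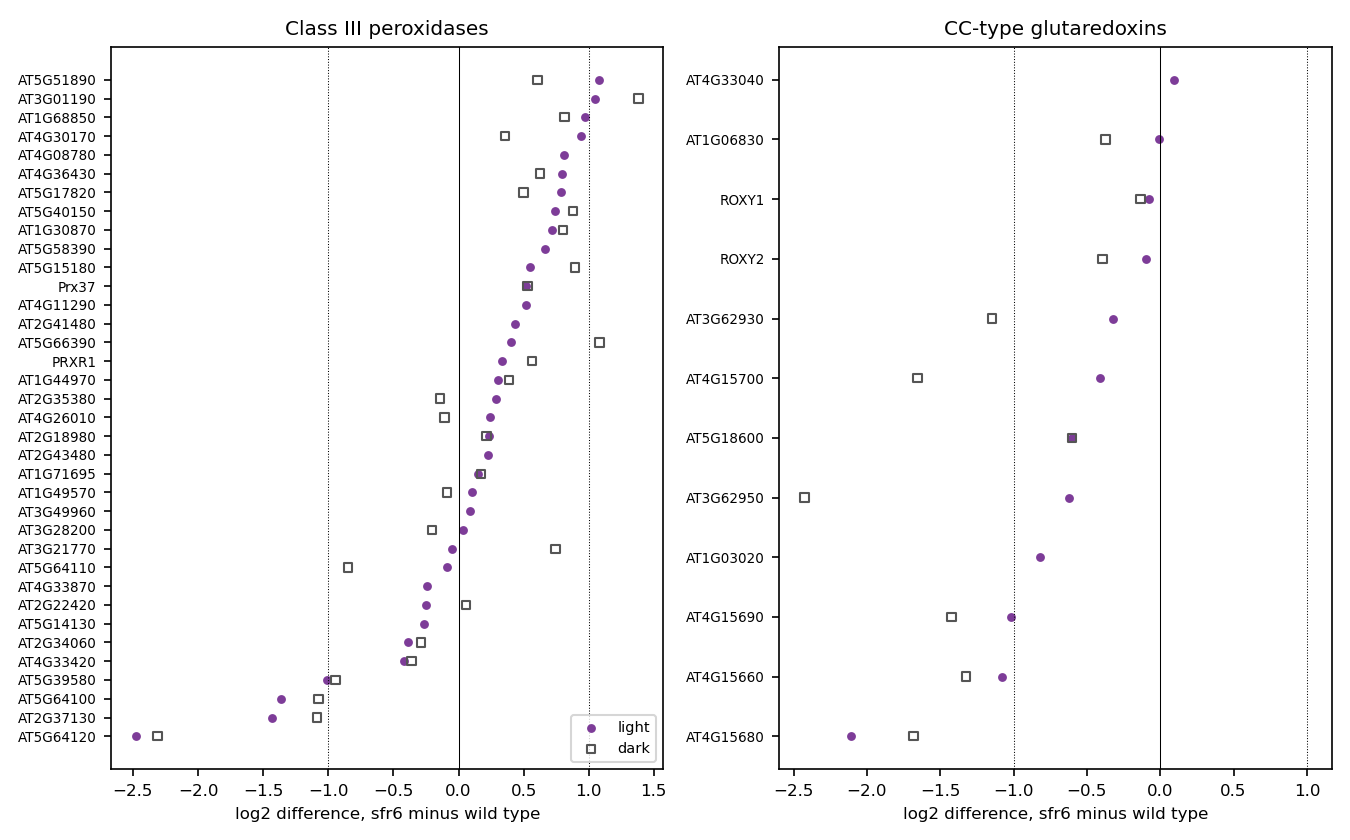
Log2 difference (sfr6 minus wild type, horizontal axis) of every measured class III peroxidase (left) and CC-type glutaredoxin (right), with filled circles for the light pair and open squares for the dark pair; dotted lines mark 2-fold. The peroxidases spread from AT5G64120 at -2.48 to AT5G51890 at 1.08. In light 11 of 12 glutaredoxins lie below 0, 6 of them with an sfr6 light signal under the floor.

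CC-type glutaredoxins are small plant redox proteins that bind TGA transcription factors. Of 21 members 12 were measured, in a list that was also assembled after seeing the values. At least 2-fold lower were 3, with 0 higher and 11 of 12 below 0 (median -0.51); with spike-in centring 2 were lower. AT1G06830 (51.6 in sfr6, 51.8 in wild type) and ROXY1 (29.8 and 31.4) were level. The 3 were AT4G15680, at 36.8 in sfr6 and 159 in wild type, AT4G15660, at 10.6 and 46.8, and AT4G15690, at 24.3 and 49.2. They belong to a run of consecutive, closely related loci, so their probe sets may share signal. AT4G15700 of that run read 13.7 in sfr6 and 29.5 in wild type. AT3G62950 lay at 0.892 in sfr6 and 34.1 in wild type in light, and at 155 and 834 in the dark. AT5G18600 read 264 in sfr6 and 401 in wild type. In 6 of the 12 the sfr6 light signal was under the floor, which shrinks the difference. These 6 entered through wild type alone and could only lie below 0. The 6 over the floor on both light arrays had a median of -0.34, and AT4G33040 among them lay above 0.

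Among the methionine sulphoxide reductases of the B type, which repair oxidised proteins, MSRB6 read 328 in sfr6 and 808 in wild type, 2.46-fold lower. Its neighbour MSRB5 was 1.35-fold higher, at 801 in sfr6 and 592 in wild type. MSRB9 was 1.90-fold higher, at 178 and 93.8. The 4 measured members thus split evenly around 0, with MSRB3 at 64.3 in sfr6 and 74.5 in wild type.

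Families of wall growth and the cytoskeleton differed in direction, with few genes at 2-fold. All 5 measured cellulases of glycosyl hydrolase family 9 lay above 0 (median 0.38) and 2 were at least 2-fold higher. GH9C2 read 550.1 in sfr6 and 273 in wild type, and GH9B13 65.3 and 30.1. Of 10 measured expansins, which loosen walls, 0 were at 2-fold and 8 lay above 0 (median 0.44), led by EXPA7. EXPA4 read 271 in sfr6 and 167 in wild type. The 6 measured xyloglucan endotransglucosylases had 3 members above 0 and 3 below. Their median was -0.04, and 0.14 with spike-in centring, where that of all named genes was 0.19. XTH19, a xyloglucan-modifying enzyme, was 2.00-fold higher, at 91.3 and 45.6, a value that fell under 2-fold with median centring or quantile normalization, while EXGT-A3 of the same family was 1.66-fold lower, at 529 and 877. Of 7 tubulin genes, 6 lay above 0 (median 0.45), with TUB1 at 103 in sfr6 and 53.9 in wild type and TUA6 at 1204 and 765. Of 14 measured serine carboxypeptidase-like genes, 13 lay above 0, all by under 2-fold (median 0.20). Over the floor on both light arrays were 11, with a median of 0.19. The others entered through sfr6 alone and could only lie above 0.

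Light-signalling and clock genes were under 2-fold different. The 4 measured of 25 listed had 0 members at 2-fold and all lay below 0, between -0.53 and -0.31, where the SD of all probe sets was 0.42. GI, the clock gene GIGANTEA, read 160.4 in sfr6 and 224 in wild type. HYH, a bZIP factor of light signalling, read 137 and 195. AT3G44450 and AT3G52740, which encode the cryptochrome inhibitors BIC2 and BIC1, read 355 and 191 in sfr6 against 512 and 237 in wild type.

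Other small groups had few or no members at 2-fold. BGLU28, a beta-glucosidase of the sulphur-deficiency response and the only measured gene of that list, read 58.1 in sfr6 and 26.7 in wild type. Of 17 measured TBL genes, which acetylate wall polysaccharides, TBL45 alone passed 2-fold, at 64.8 in sfr6 and 133 in wild type, and with spike-in centring none did. Of the 17, 13 were over the floor on both light arrays. Below 0 lay 13 of the 17 (median -0.10, and 0.08 with spike-in centring, against 0.02 and 0.19 for all named genes). In the dark TBL45 read 394 in sfr6 and 286 in wild type. Of the 13 TBL genes measured in both pairs, 10 lay above 0 in the dark (median 0.17). The 4 WRKY and 12 bZIP transcription factors measured had 0 members at 2-fold. The 3 early auxin-response genes had 0 as well, but GH3.3, at 42.3 in sfr6 and 10.6 in wild type, was at least 1.91-fold higher and passed 2-fold with spike-in centring. No member at 2-fold was found among the 1 guard cell, 1 salicylic acid, 1 glucosinolate, 1 touch-response and 2 heat shock genes measured.

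Chloroplast-encoded transcripts showed no common direction. Of 69 measured, 2 were at least 2-fold higher and 2 lower, 35 lay above 0, and the median was 0.01. rps14, a ribosomal protein transcript, read 21.4 in sfr6 and 100.2 in wild type, at least 4.53-fold lower, and petG, a cytochrome b6f subunit transcript, 69.5 and 191. Higher were rpl14, at 305 in sfr6 and 122 in wild type, and ndhJ, at 644 and 312. Of the genes next to these by locus number, rpl16 read 1169.5 in sfr6 and 698 in wild type, and ndhK 233 and 154. Those next to the lower transcripts were level: petL read 764 in sfr6 and 757 in wild type and psaJ 2695 and 2848 beside petG, and psbZ 1125 and 1131 and psaB 3254 and 3409.5 beside rps14. In the dark rps14, petG and ndhJ were level between the genotypes, at 60.1, 147 and 302 in sfr6 and 54.5, 148 and 317 in wild type.

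**Figure D4:**
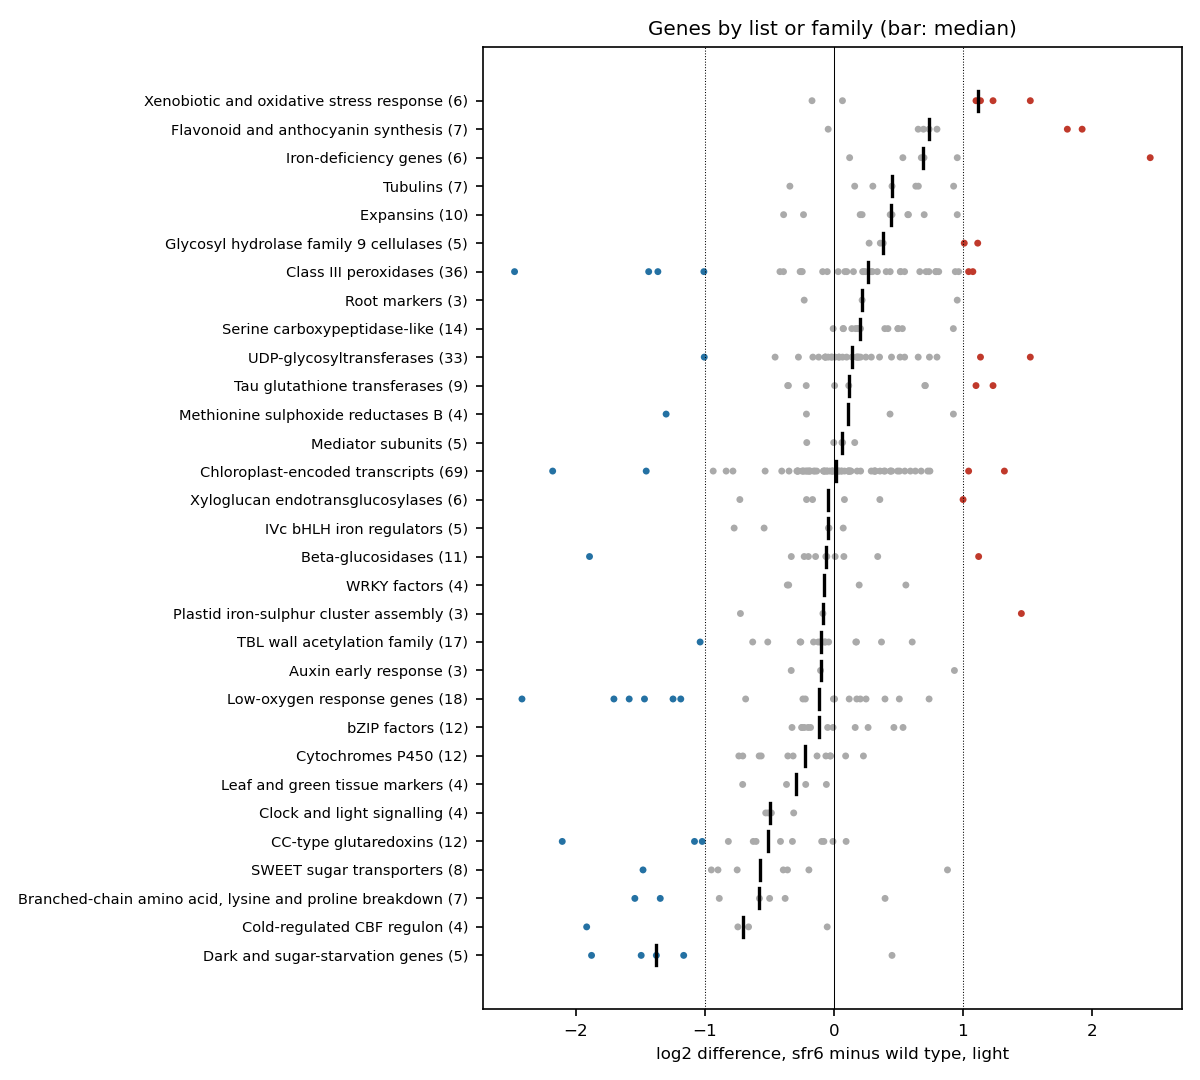
Each point is a measured gene, placed by its log2 difference in light (sfr6 minus wild type), in rows by gene list or family with the number measured in brackets; black bars are medians, red points at least 2-fold higher and blue points at least 2-fold lower. Medians run from -1.38 for dark and sugar-starvation genes to 1.12 for the xenobiotic and oxidative stress list.

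The remaining leading genes belonged to no list. AT1G67865, of unassigned function, had the largest difference of all named genes with signals floored at 22.1, at 21.2 in sfr6 and 153 in wild type, at least 6.90-fold lower. With the floor at the 20th percentile its log2 difference was -2.85, and that of GAT1_2.1 was -3.09. AT2G34810, which encodes a berberine bridge enzyme-like oxidoreductase, read 19.5 and 101, and AT1G65490 83.8 and 374. In AT3G49160, of the pyruvate kinase family, the sfr6 signal was 19.3 and the wild-type signal 92.8. BGLU46, a beta-glucosidase that acts on lignin precursor glucosides, was just under the floor in sfr6 and read 82.2 in wild type. AT1G05340, AT5G20790 and AT1G32780, the last an alcohol dehydrogenase-like gene, were 3.35-fold, at least 3.33-fold and 3.21-fold lower.

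On the higher side, AT4G35940 was at least 3.25-fold up, at 72.0 in sfr6 and 21.9 in wild type. AT3G17680 read 98.3 and 34.2, and AT3G01410, a gene of the RNase H-like class, 84.0 and 29.6. TOPII, the DNA topoisomerase of dividing cells, read 91.2 in sfr6 and 35.4 in wild type. AT5G62340, a pectin methylesterase inhibitor-like gene, AT3G61610, AT1G73620, a thaumatin-like gene, and AT1G62290, an aspartyl protease gene, were 2.55-fold, 2.52-fold, 2.50-fold and 2.42-fold higher.

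Some of the differences lay in bright transcripts, with over 200 on both light arrays. AT1G66100, a thionin gene, read 281 in sfr6 and 806 in wild type, and AT5G19120, an aspartyl protease-like gene, 225 and 624. AT1G62510, of the lipid transfer protein class, read 874 and 2362. CCL, a clock-regulated transcript, read 622 in sfr6 and 1462 in wild type, and JAL33, a jacalin-type lectin, 458 and 1057. On the higher side, the lipid transfer gene AT5G01870 read 935 in sfr6 and 379 in wild type, and AT1G73600, a phosphoethanolamine methyltransferase gene of choline synthesis, read 1247 and 612. AT5G20080, AT2G28790, AT5G20700 and AT4G34450 were between 1.86-fold and 1.97-fold higher.

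The dark pair, which shares no array with the light pair, showed most light differences again in direction. Of 122 probe sets at least 2-fold higher in sfr6 in light and measured in both pairs, 116 were above 0 in the dark and 25 at least 2-fold higher. Of 240 lower ones, 224 were below 0 in the dark and 70 at least 2-fold lower. Over all 13467 probe sets measured in both pairs, 56.9% were above 0 in the dark and 43.1% below; taken alone, the dark pair had 0.775% of its probe sets higher by 2-fold or more and 1.67% lower. The set higher in light had medians of 1.12 in light and 0.64 in dark. For the set lower in light the medians were -1.25 and -0.65. Both sets were picked by size in light, so these medians do not compare the strength of the difference in light and dark.

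Genes differed in how far the dark pair repeated the light one. AT1G67865 was 6.90-fold lower in the dark too, at 27.3 in sfr6 and 188 in wild type. AT5G64120 read 112 and 557, and AT5G01870 335 and 129. By contrast DFR read 110.3 in sfr6 and 84.2 in wild type in the dark, and PDC2 119.6 and 157. Whether the genotype difference itself changed between light and dark was not tested.

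**Figure D5:**
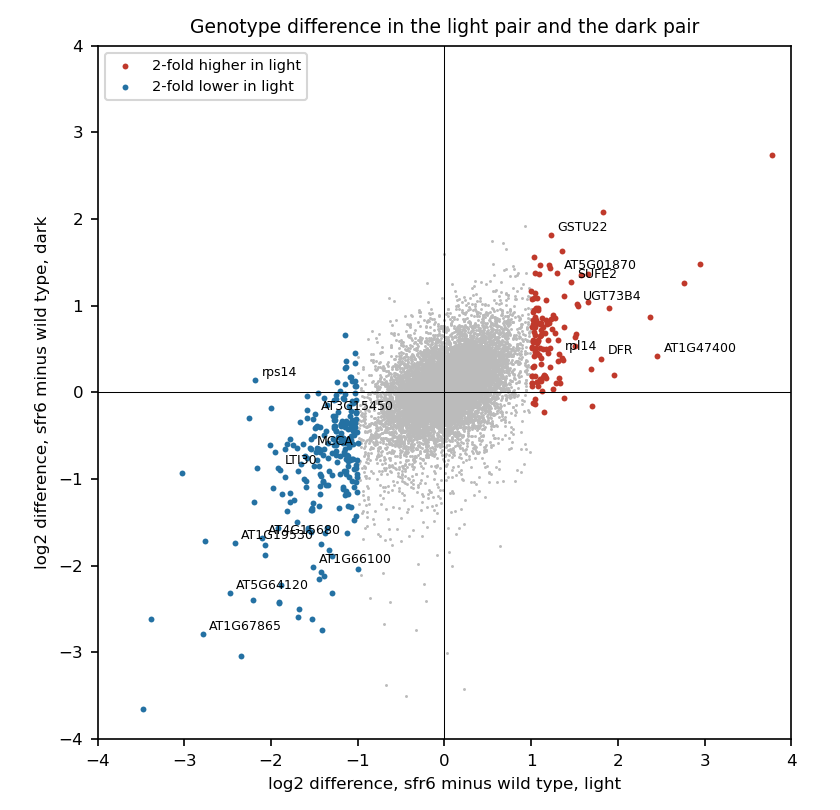
Log2 difference between sfr6 and wild type in the light pair (horizontal axis) and in the dark pair (vertical axis) for the 13467 probe sets measured in both; red and blue mark those at least 2-fold higher or lower in light. Of the red points 116 of 122 lie above 0 on the vertical axis, and of the blue points 224 of 240 lie below it.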

How the data were processed

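Total RNA was labelled with biotin and hybridised to Affymetrix ATH1 arrays, 1 per sample. The deposited values are intensity values on a linear scale, made with MAS5 per the submitters' processing notes, which give no version; their mean without the lowest and highest 2% was 100 on each array. No detection calls were used. Of 22810 probe sets, 64 controls were left out. The floor was the 40th percentile of the remaining signals on all 4 arrays (22.1), and a probe set was compared when at or over it on at least 1 array of the pair.

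Names came from the platform annotation, updated through a RefSeq gene table (TAIR10.1, names and locus order alone): 13513 probe sets had 1 gene, 503 several and 8730 none. The members, the 25 gene lists and the alternatives were chosen with earlier results of these data known. Another 5 lists and 16 families (by gene symbol) were added after the values were seen, in place of a search for words in gene descriptions, since the table holds none. A planned motif count in promoters was not run. A list with fewer than 3 measured genes got no median. Lists for seed, cell division and senescence markers, iron storage, abscisic acid, jasmonate and ethylene, nitrate and phosphate, and the ABC transporter family, had 0 measured genes. In the jasmonate and ethylene list 3 genes had a named probe set, under the floor on both light arrays. The others had 0 genes with a named probe set, so their signals were not examined. Named genes were the 15 with the largest difference each way, the 8 each way among those with at least 200 on both light arrays, list members at least 2-fold different or up to 4 examples in order of size, and tissue markers; further members are named to complete a list. With 1 array per group no p-value can be given, and the number of arrays limits the precision. The fold calculation was tested on simulated data. Python 3.11.15, pandas 2.3.3, numpy 2.4.6 and matplotlib 3.10.9 were used.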

Additional observations from a re-analysis of the deposited data

Results flagged for a closer look

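For 4 of 329 list members, leading genes and markers measured in both pairs, the genotype difference had opposite directions in light and in dark, each by at least 1.5-fold, as for 18 of all 7145 named genes measured in both; none of these contrasts was tested, and each rests on 1 array per group. PYE, the iron-deficiency bHLH regulator, had a log2 difference (sfr6 minus wild type) of 0.68 in light and -1.02 in dark, from 27.7 in sfr6 and 56.1 in wild type in the dark. SWEET4, a sugar transporter, had 0.88 in light and -0.66 in dark. GH3.3, an early auxin-response gene that conjugates auxin to amino acids, had 0.94 in light and -0.65 in dark, with the wild-type light signal of 10.6 under the floor. The chloroplast transcript ndhF had -0.84 in light and 0.70 in dark, with its sfr6 light signal (15.8) and wild-type dark signal (17.3) both under the floor.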

How the results depend on the processing

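The main counts were 148 higher and 252 lower in light, and 25 and 70 in light and dark. With the floor at the 60th percentile they were 63 and 160, and 8 and 41; at the 20th percentile 438 and 552, and 82 and 116. Without floor and filter they were 1508 and 1794, and 370 and 463. When both arrays of each pair had to be over the floor, the count higher in light and dark was 15. With spike-in centring 328 were higher and 162 lower in light, and 52 higher in both. From 3-fold, chosen after seeing the data, 17 were higher and 53 lower. Median centring (146 and 259) and quantile normalization (137 and 261) stayed within 1.5 times of the main counts. Wherever they could be recomputed, the 8 list medians of at least 0.5 in size and the 45 leading genes kept their direction under these 7 alternatives; the glutaredoxin median and 1 gene could not be with the floor at the 60th percentile, nor 10 genes when both light arrays had to be over the floor. Of 211 list medians recomputed, 209 moved by less than 1 SD over all probe sets; the other 2, with the floor at the 60th percentile, were -0.82 for dark and sugar-starvation genes and 0.47 for the xenobiotic list. Under spike-in centring the small medians of the early auxin, IVc bHLH, iron-sulphur, XTH, beta-glucosidase, TBL, WRKY and bZIP lists changed sign. That centring also moved the median of all named genes, from 0.02 to 0.19. A floor at the 20th percentile, or none, turned the low-oxygen median to 0.06 in both cases and the early auxin median to 0.07 and 0.18. For XTH the median turned to 0.07 at the 60th percentile and to 0.03 without a floor. Of 304 gene differences recomputed 21 moved by more, all by a change of floor, among them AT4G14090 (3.52 with the floor at the 20th percentile, 0.53 at the 60th) and SUFE2 (0.06 at the 60th). No paired analysis was possible because each group has 1 sample and shares only replicate number 1.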

Other observations

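Some small secreted proteins outside the lists, chosen after their values were seen, were split between the directions. Among lipid transfer-type genes, AT3G22620 read 413 in sfr6 and 179 in wild type and AT5G59330 60.7 and 29.5, whereas AT4G12500 read 27.6 and 72.6. Thaumatin-like genes divided likewise: ATLP-1 read 119.8 in sfr6 and 56.6 in wild type, and OSM34, osmotin, 99.4 and 221. AT2G38870, a proteinase inhibitor gene, was 2.25-fold lower in light, at 176 and 396, and 2.14-fold lower in dark. AT3G22060, which encodes a cysteine-rich secretory protein, was 2.45-fold and 3.70-fold lower in light and dark.

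AT2G30600, a BTB/POZ-domain gene, was the only named gene at 2-fold with more than 1 measured probe set, and both gave alike values, -1.61 and -1.59. UPB1, a bHLH factor known to control peroxidase genes in the root tip, read 22.8 in sfr6 and 54.5 in wild type. AT1G67860, which lies next to AT1G67865 in the locus order, read 70.0 and 166. The 5S ribosomal RNA control read 28.2 in sfr6 and 77.6 in wild type in light, and 18.1 and 45.9 in dark.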
